A study of Mus musculus with 32 samples.

Results

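Open chromatin was described at 10 imprinted genes, Igf2, H19, Kcnq1, Dlk1, Meg3, Peg3, Grb10, Mest, Igf2r and Snrpn, in mouse cells on the way from fibroblasts to pluripotency. The genes were named by symbol, and a peak belonged to them when its centre lay in a gene body or within 50 kb of it (GRCm38). The windows of H19 and Igf2 overlap, as do those of Dlk1 and Meg3, so the 10 genes form 8 separate loci that cover 2.03 Mb, and each peak was counted once. All 10 symbols were found in the gene table. The 15 deposited peak lists hold between 55 and 214 member peaks each, of 43618 to 213386 peaks per list after overlapping intervals were merged. Over the 10 lists of day 0 and sorted cells, the windows hold 243 of 267322 distinct sites.

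ATAC-seq, in which a transposase inserts sequencing adapters where DNA is open, was applied to 32 samples of OG2 mouse embryonic fibroblasts and their progeny under Oct4, Sox2, Klf4 and c-Myc (OSKM). In a doxycycline-inducible lentiviral OSKM system, cells with an shRNA against CTCF (shCTCF) were set against cells with a control shRNA (shLuci) at day 0 and as sorted Thy1+, SSEA1-Thy1-, SSEA1+ and GFP+ cells. At day 10, the groups were OSKM with CTCF overexpression and a Smarca5 shRNA (oeCTCF_shSmarca5), OSKM with CTCF overexpression (oeCTCF) and OSKM with a control vector (oeControl). At day 12, unsorted cells with a Smarca5 shRNA (shSmarca5) were set against shLuci. The Thy1+ groups pool 3 samples from days 3, 6 and 9, the SSEA1-Thy1- and SSEA1+ groups pool 2 samples from days 6 and 9, the GFP+ groups hold 2 samples of day 12, and each other group holds 2 samples of 1 day. Each group is represented by 1 deposited list, so no value below has a replicate check and no test of a condition was possible. The samples of a sorted group are not said to come from separate cultures.

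Imprinted genes are transcribed from the copy inherited from 1 parent. Each cluster has a control region that carries DNA methylation on a single parental copy, and several of these regions are also starts of long non-coding RNAs. At the H19 control region, CTCF is known to bind the unmethylated maternal copy and to insulate Igf2 from enhancers on the far side of H19, which makes the locus the textbook case of a CTCF insulator. Smarca5 is the ATPase of ISWI remodelling complexes, which space nucleosomes and are known to help CTCF reach its sites. Silencing of the Dlk1-Meg3 cluster's maternal RNAs is a known defect of some mouse induced pluripotent stem cell lines. Peak lists do not tell the parental copies apart, and in bulk samples fewer cells with an open site and less opening per cell cannot be told apart.

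Promoters of some starts that carried peaks are shown first. The sequences are RefSeq promoters on GRCm38.p6, from 250 bases before to 50 bases after the start, 5′ to 3′ on the gene's own strand. Of the 10 genes, 8 have entries in the promoter table, with 18 promoters in all, 2 of which, at Mest, start 3 bases apart. Capitals mark matches, on either strand, to AGNNGGCGC or GNGGNGGCA, strings that resemble parts of the CTCF motif. The matches in the printed promoters do not overlap.
Igf2, chr7:142657447-142657746, reverse strand: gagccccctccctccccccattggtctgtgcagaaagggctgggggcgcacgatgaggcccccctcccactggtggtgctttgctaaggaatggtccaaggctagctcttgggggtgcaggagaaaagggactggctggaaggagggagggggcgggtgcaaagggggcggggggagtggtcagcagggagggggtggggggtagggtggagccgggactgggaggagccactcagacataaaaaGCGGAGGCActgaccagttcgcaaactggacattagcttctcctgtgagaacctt
Igf2r, chr17:12769657-12769956, reverse strand: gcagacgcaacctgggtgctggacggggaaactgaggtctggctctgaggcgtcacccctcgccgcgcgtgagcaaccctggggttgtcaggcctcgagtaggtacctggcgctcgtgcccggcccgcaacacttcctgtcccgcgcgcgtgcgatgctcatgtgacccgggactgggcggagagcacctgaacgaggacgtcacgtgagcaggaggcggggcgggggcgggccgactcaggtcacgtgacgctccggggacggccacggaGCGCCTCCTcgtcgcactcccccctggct
Airn, chr17:12741061-12741360, forward strand: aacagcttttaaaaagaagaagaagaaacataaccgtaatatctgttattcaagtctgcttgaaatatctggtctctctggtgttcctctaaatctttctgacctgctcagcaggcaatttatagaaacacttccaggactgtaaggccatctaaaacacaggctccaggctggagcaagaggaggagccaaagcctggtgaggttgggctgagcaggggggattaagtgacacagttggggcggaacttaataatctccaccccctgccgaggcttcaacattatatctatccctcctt
Kcnq1ot1, chr7:143296498-143296797, reverse strand: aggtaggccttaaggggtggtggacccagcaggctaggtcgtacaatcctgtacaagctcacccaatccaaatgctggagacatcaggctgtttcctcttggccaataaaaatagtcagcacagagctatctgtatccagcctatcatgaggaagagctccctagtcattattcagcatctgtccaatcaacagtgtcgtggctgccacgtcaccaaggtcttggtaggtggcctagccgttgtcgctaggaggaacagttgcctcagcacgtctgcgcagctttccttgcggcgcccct
Peg3, chr7:6730370-6730669, reverse strand: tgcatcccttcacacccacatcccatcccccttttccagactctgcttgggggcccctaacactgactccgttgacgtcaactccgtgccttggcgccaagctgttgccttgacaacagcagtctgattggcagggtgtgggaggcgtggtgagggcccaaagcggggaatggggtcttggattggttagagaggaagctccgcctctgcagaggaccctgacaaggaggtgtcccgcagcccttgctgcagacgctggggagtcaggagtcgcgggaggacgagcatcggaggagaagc
Meg3, chr12:109540746-109541045, forward strand: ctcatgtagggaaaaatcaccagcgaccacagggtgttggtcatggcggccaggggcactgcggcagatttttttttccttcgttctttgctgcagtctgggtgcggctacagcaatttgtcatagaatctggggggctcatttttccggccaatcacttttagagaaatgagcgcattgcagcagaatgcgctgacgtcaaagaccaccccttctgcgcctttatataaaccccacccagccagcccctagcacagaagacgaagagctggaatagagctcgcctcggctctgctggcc
AGNNGGCGC was found in 2 of the 18 member promoters, those of Igf2r and Dlk1, and in 7.23% of 32817 mouse promoters. GNGGNGGCA was found in 3 of the 18, at 2 starts of Igf2 and 1 of Grb10, and in 8.96% of all promoters. A match says only that these letters are present. The Igf2r, Airn and Kcnq1ot1 promoters overlapped a peak in all 15 lists, the Meg3 promoter in 13, the Peg3 promoter in 12 and the Igf2 promoter in 8. Between 5 and 9 of the 18 member promoters held a peak in a list, against 38.5% to 46.3% of all promoters.

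Whole lists differ in ways that touch every count. The shCTCF SSEA1+ list stands apart from its control: 6 fibroblast marker genes had 100 peaks within 10 kb of them in shCTCF SSEA1+ cells and 50 in shLuci SSEA1+ cells. The same markers had 87, 107, 73, 50 and 23 peaks over the shLuci lists of day 0, Thy1+, SSEA1-Thy1-, SSEA1+ and GFP+ cells, and each of the 6 had at least 1 peak in every list. In GFP+ cells they had 34 peaks with shCTCF and 23 with shLuci. The 6 pluripotency markers had 39 peaks in shCTCF and 40 in shLuci SSEA1+ cells, and 48 in each GFP+ list. The shCTCF SSEA1+ list is also longer, with 183640 peaks against 135749, and marker sums of endothelial cells (48 against 29 peaks), haematopoietic cells (42 against 29) and keratinocytes (29 against 19) were higher in it too. Those of trophoblast and endoderm (36 against 30) rose less, and those of neural cells were 23 in each list. Means over the CTCF shRNA pairs are therefore given with and without the SSEA1+ pair, and the part of the cell mixture in them was not tested. Lists were compared within 3 sets, day 0 and sorted cells, day 10, and day 12, because peak positions within a set are identical for 44% to 95.6% of the shorter list and between sets for 0.664% to 0.887%. Where a site is looked up in another set, a shifted interval that does not overlap it counts as absent. The lists of day 10 and day 12 are also shorter, so presence across sets is a description only.

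**Figure D1:**
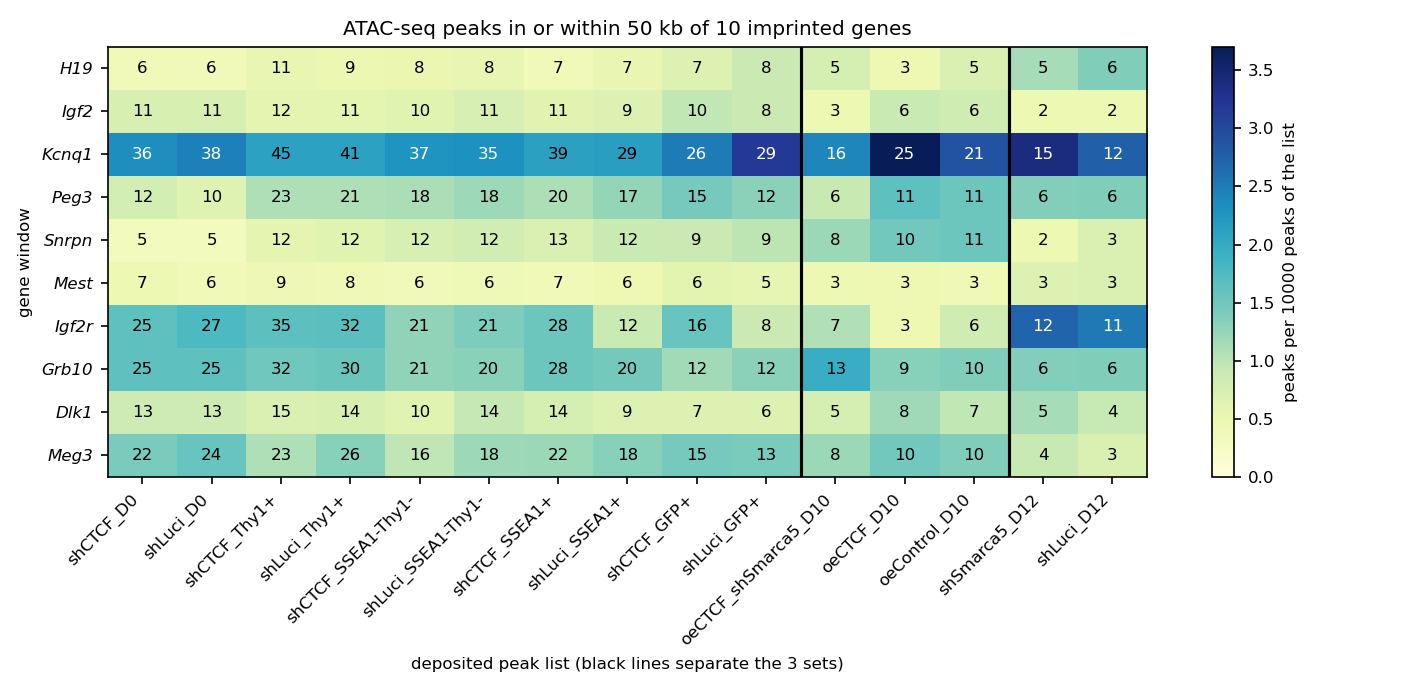
Peaks in or within 50 kb of each of the 10 genes in the 15 lists. Numbers are peaks, colour is peaks per 10000 peaks of the list, and black lines separate the 3 sets; the Igf2r row shows 28 peaks in shCTCF SSEA1+ cells against 12 in shLuci SSEA1+ cells.

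The first question was how many peaks the imprinted windows held when CTCF was knocked down. The 5 shCTCF lists held 159, 214, 158, 187 and 122 member peaks at day 0 and in Thy1+, SSEA1-Thy1-, SSEA1+ and GFP+ cells, against 163, 202, 161, 137 and 109 in the shLuci lists. These counts move with the length of the whole list. The relative log2, the log2 ratio of member peaks between a pair minus that of the whole lists, was -0.04, -0.05, -0.14, 0.01 and -0.02 in the 5 pairs. Its exact 95% intervals (counting error over peaks alone) all held 0, the widest running from -0.40 to 0.37 in GFP+ cells. The mean over the 5 pairs was -0.05 ± 0.06 (SD, n = 5 pairs), with 1 pair above 0. Without the SSEA1+ pair it was -0.06 ± 0.06 over 4 pairs, none above 0. Differences smaller than these intervals were not detectable from peak numbers of this size.

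Peak identity was compared next. A peak is called lost when it is in the control list only and gained when it is in the treated list only. At day 0, 11 of 163 member peaks were lost with shCTCF (6.75%, 95% interval 3.42% to 11.8%), against 4.45% of the whole list, and 7 of 159 were gained (4.4%), against 4.85%. In Thy1+ cells 11 of 202 were lost (5.45%), against 8.2% of the whole list, and 23 of 214 were gained (10.7%, interval 6.94% to 15.7%), against 16.3%. In both pairs the losses lay within counting error of the whole list, and the gains in Thy1+ cells lay below it. With windows of 20 kb the Thy1+ gains were within counting error of the whole list (12.4%, interval 7.53% to 18.9%).

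In SSEA1-Thy1- cells 19 of 161 member peaks were lost with shCTCF (11.8%), against 8.74% of the whole list, and 16 of 158 were gained (10.1%, interval 5.9% to 15.9%), against 15.8%. With windows of 20 kb the gained share in these cells lay below the whole list (8.11%, interval 3.77% to 14.8%). In SSEA1+ cells 8 of 137 were lost (5.84%), against 7.99%, and 58 of 187 were gained (31%, interval 24.5% to 38.2%), against 32%. In GFP+ cells 20 of 109 were lost (18.3%, interval 11.6% to 26.9%), against 14.3%, and 33 of 122 were gained (27%), against 24.3%. The large gain in SSEA1+ cells was a property of the whole list, and the share in the member windows lay within counting error of it.

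**Figure D2:**
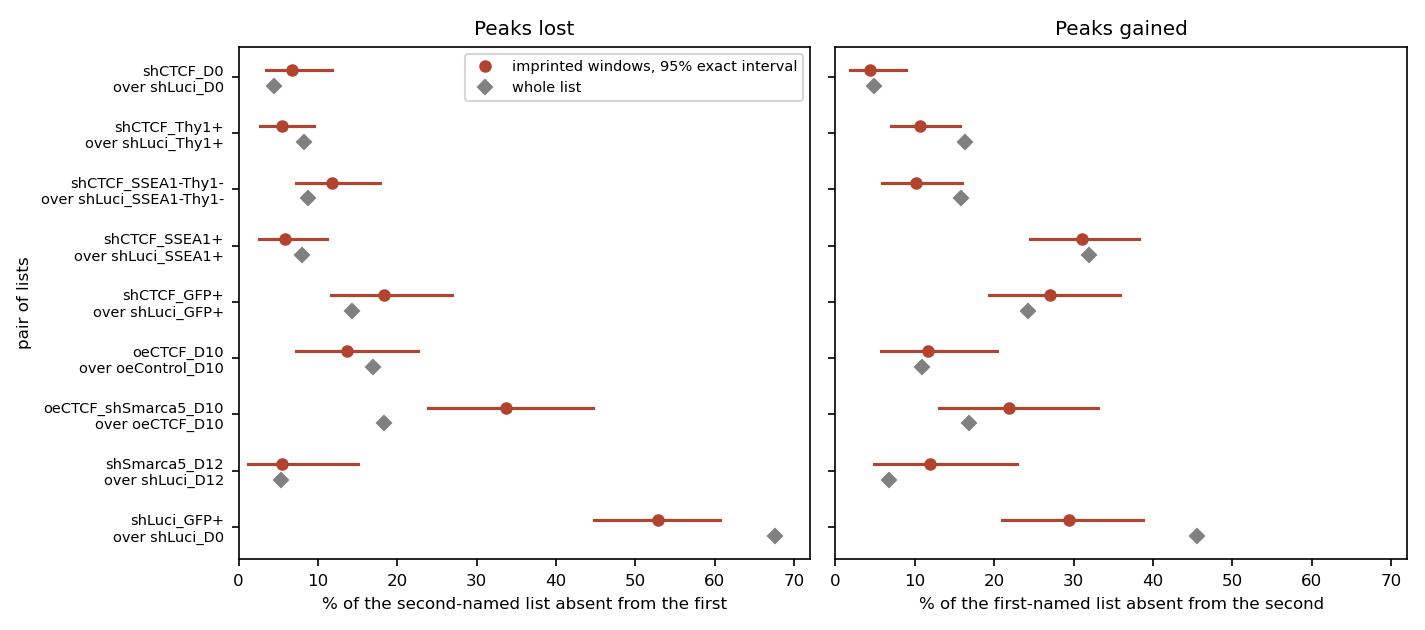
Share of peaks lost (left) and gained (right) in 9 pairs of lists, in percent. Red points are the imprinted windows with their exact 95% intervals and grey diamonds the whole lists; the oeCTCF_shSmarca5 point for losses, 33.7%, and both points of the GFP+ against day 0 pair lie apart from their diamonds, as does the Thy1+ point for gains, 10.7%.

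Few sites were lost or gained in more than 1 pair, in the windows as among all sites. Of the 243 sites, 50 were lost in 1 of the 5 CTCF shRNA pairs (20.6%, against 17.9% of all sites), 8 in 2 (3.29%, against 1.92%) and 1 in 3 (0.412%, against 0.188%). The site lost in 3 pairs lay at chr7:60238656-60239055 in the Snrpn window. It was in the shLuci lists only of Thy1+, SSEA1+ and GFP+ cells, in both lists of SSEA1-Thy1- cells and in neither list of day 0, so that without the SSEA1+ pair it was lost in 2 pairs. Gains were found once at 88 sites (36.2%, against 34.5% of all sites), in 2 pairs at 23 (9.47%, against 9.35%) and in 3 pairs at 1 (0.412%, against 1.15%). The last was chr17:12752997-12753396 in the body of Igf2r, which was in the shCTCF lists only of Thy1+, SSEA1-Thy1- and GFP+ cells and in the shLuci list only of SSEA1+ cells.

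By single genes, a window was set apart when its peak number, with 1 added to each list, differed by more than 1.5-fold relative to the whole lists and both lists together held at least 10 peaks. No member passed at day 0 (0 of 10, against 0.121% of all gene windows), in Thy1+ cells (0 of 10, against 1.27%) or in SSEA1-Thy1- cells (0 of 10, against 1.05%). Igf2r alone passed in SSEA1+ cells (1 of 10, against 6.7%) and in GFP+ cells (1 of 10, against 4.2%), higher with shCTCF in both.

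H19, a maternally expressed long non-coding RNA, and Igf2, a paternally expressed growth factor gene, were the first of the genes examined site by site. H19 lies at chr7:142575530-142578146 and Igf2 at chr7:142650768-142666816 (GRCm38). The H19 window held 6, 11, 8, 7 and 7 peaks in the shCTCF lists from day 0 to GFP+ cells, and 6, 9, 8, 7 and 8 in the shLuci lists. The Igf2 window held 11, 12, 10, 11 and 10 peaks with shCTCF and 11, 11, 11, 9 and 8 with shLuci. Within this set the numbers of a pair differed by at most 2 peaks for either gene. The joint window held 7, 8 and 10 peaks in the oeCTCF_shSmarca5, oeCTCF and oeControl lists of day 10, and 6 in shSmarca5 and 7 in shLuci cells of day 12.

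Of its 23 sites in the day 0 and sorted lists, 7 were in all 10 lists (30.4%), against 13.5% of all sites. The Mest, Peg3 and Snrpn windows had similar shares (30%, 29.2% and 28.6%). No interval was computed for these shares of few sites, so the window cannot be set apart from all sites by them. A peak over the upper end of H19 (chr7:142578034-142578433), its known start, was in all 10 of these lists and in both day 12 lists. None of the 3 lists of day 10 had a peak overlapping it. Those lists form a separate set with other peak positions and are shorter than those of day 0 and sorted cells, so this absence is not a comparison of conditions. The control region is known to lie just upstream of this start, and 2 sites were found there, centred 2.28 kb and 3.31 kb from the gene. The nearer one (chr7:142580222-142580621) was in 9 of the 10 lists and absent from the shCTCF GFP+ list. The farther one (chr7:142581258-142581657) was in all 8 sorted lists and in neither day 0 list. Both sites were thus called in every shCTCF list of sorted cells except for the nearer site in GFP+ cells, and 1 list without replicates cannot show whether that absence repeats.

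The day 10 lists differed at the same place. Peaks at chr7:142580147-142580546 and chr7:142581374-142581773 were in the oeCTCF_shSmarca5 list, absent from the oeCTCF list and present in the oeControl list. The oeCTCF list was thus the only list of the 15 without any peak in the 5 kb upstream of H19. These are 2 of 10 member sites with that pattern among 104 day 10 sites (9.62%), against 8.27% of all sites, so the pattern was about as frequent in the imprinted windows as among all sites. At day 12 a peak at the nearer site was in both lists, and a peak at chr7:142581799-142582198 was in the shLuci list only.

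Farther out, 2 sites on the enhancer side of H19, centred 37.4 kb and 42.3 kb below the gene, were in all 15 lists. Between the genes, a site 33.1 kb above H19 (chr7:142611069-142611468) was in all lists but that of shLuci day 0 cells, and a site 17.3 kb above H19 was in all 8 sorted lists and no other list. In Igf2, which has 4 RefSeq starts, a site at chr7:142659478-142659877, 0.874 kb from one of them, was in all 15 lists. A second Igf2 site (chr7:142660515-142660914) was in all 10 lists of its set and in the oeCTCF and oeControl lists, but not in the oeCTCF_shSmarca5 list or at day 12. The peak at the printed Igf2 promoter was in 8 lists, all of day 0 and sorted cells, and was missing from the shCTCF SSEA1+ and shLuci GFP+ lists. No direction was shared by the pairs at that start.

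**Figure D3:**
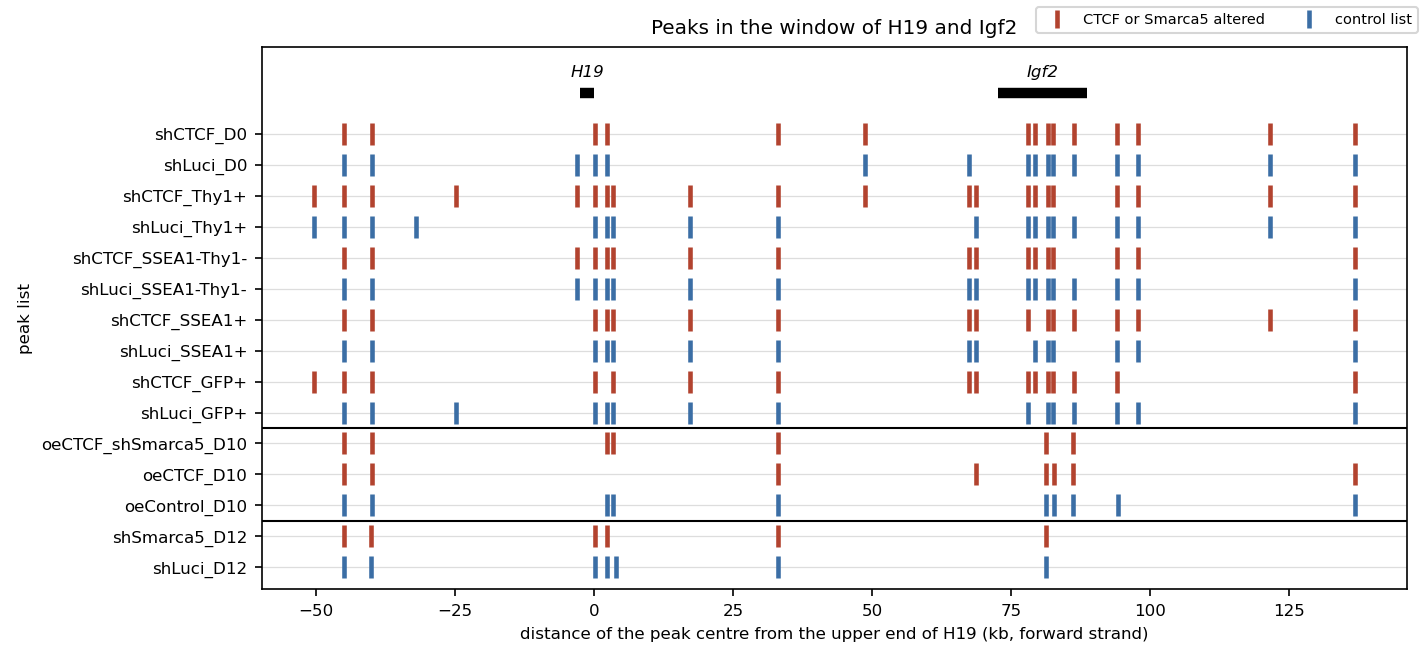
Position of every peak in the window of H19 and Igf2, as the distance of its centre from the upper end of H19 in kb, for the 15 lists. Red marks are lists with CTCF or Smarca5 altered and blue marks control lists; the oeCTCF list lacks the marks at 2.2 kb and 3.43 kb that the oeCTCF_shSmarca5 and oeControl lists hold.

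Kcnq1 (chr7:143106877-143427050), a potassium channel gene, hosts in an intron the start of Kcnq1ot1, an antisense RNA that silences the cluster on the paternal copy. Its window held 36, 45, 37, 39 and 26 peaks in the shCTCF lists from day 0 to GFP+ cells, and 38, 41, 35, 29 and 29 in the shLuci lists. The peak over the Kcnq1ot1 start (chr7:143296418-143296817, 0.0705 kb from it) was in all 15 lists. So was a peak over one end of Cdkn1c (chr7:143460948-143461347), the gene of a cyclin-dependent kinase inhibitor in the same cluster. The peak nearest the lower end of Kcnq1 (chr7:143106984-143107383, 0.306 kb) was in neither day 0 list and in all 13 others. In this window 11 of 54 sites were in all 10 lists of day 0 and sorted cells (20.4%), against 13.5% of all sites, with no interval computed.

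Igf2r (chr17:12682406-12769706) encodes the receptor that removes IGF2 from the cell surface, and the antisense RNA Airn, which silences it on the paternal copy, starts within it. The Igf2r window held 25, 35, 21, 28 and 16 peaks in the shCTCF lists from day 0 to GFP+ cells, and 27, 32, 21, 12 and 8 in the shLuci lists. The 2 lists differed most in SSEA1+ and GFP+ cells. The relative log2 of the window was 0.79 in SSEA1+ cells (95% interval -0.24 to 1.9) and 0.82 in GFP+ cells (-0.49 to 2.25). Both intervals held 0. In the same pairs the fibroblast marker peaks were 100 with shCTCF against 50 with shLuci, and 34 against 23, and their part in this was not tested. The relative log2 of Igf2r was -0.12, -0.00481 and -0.12 in the day 0, Thy1+ and SSEA1-Thy1- pairs. The mean over the 5 pairs was 0.27 ± 0.49 (SD), with 2 above 0, and without the SSEA1+ pair 0.15 ± 0.45 over 4 pairs.

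Of the 28 peaks of shCTCF SSEA1+ cells in the Igf2r window, 17 were gained (60.7%), against 32% of the whole list, and of the 16 of shCTCF GFP+ cells, 9 (56.2%), against 24.3%. In SSEA1+ cells the extra peaks lay largely where day 0 cells were open. Of the 27 day 0 control peaks, 20 were absent from shLuci GFP+ cells. The shCTCF SSEA1+ list held 17 of these 20 (85%) and the shLuci SSEA1+ list 2 (10%), beside 55.6% and 15.1% of all such peaks. The shCTCF GFP+ list held 4 of the 20 (20%), beside 11.7% of all such peaks, so most of its 9 gained peaks were not among them. The starts themselves did not vary. Peaks over the Igf2r start (chr17:12769478-12769877) and the Airn start (chr17:12741111-12741510) were in all 15 lists, although 3 of 35 sites in this window were in all 10 lists of day 0 and sorted cells (8.57%), the lowest share of the 8 loci.

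**Figure D4:**
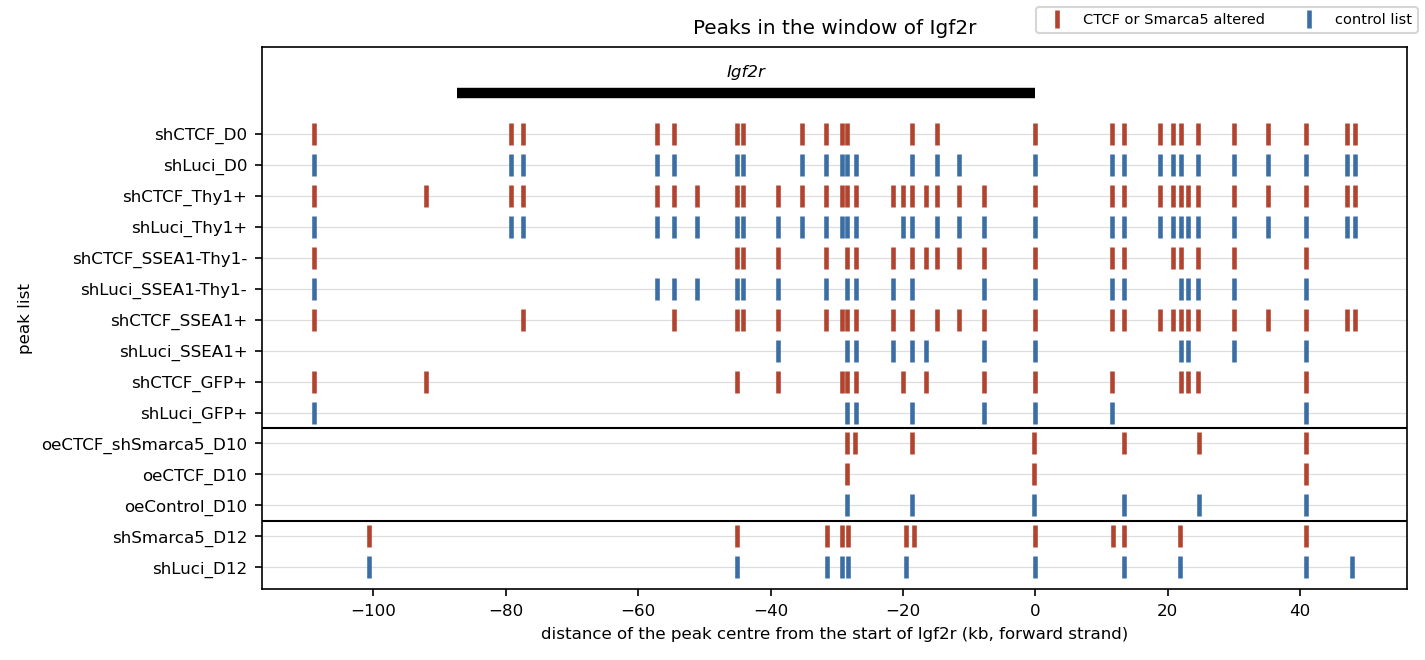
Position of every peak in the window of Igf2r, as the distance of its centre from the Igf2r start in kb, for the 15 lists. Red marks are lists with CTCF or Smarca5 altered and blue marks control lists; the marks at the start stand in all 15 rows, and shCTCF SSEA1+ cells have 28 marks against 12 in shLuci SSEA1+ cells.

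Grb10 (chr11:11930499-12037428), an adaptor that dampens insulin and IGF receptor signalling, had 25, 32, 21, 28 and 12 peaks in its window in the shCTCF lists from day 0 to GFP+ cells, and 25, 30, 20, 20 and 12 in the shLuci lists. Its day 0 pair had identical sets of 25 peaks. A peak over its outer start (chr11:12037190-12037589) and another at chr11:12025721-12026120, 2.05 kb from its inner start, were in all 15 lists. Of 18 day 0 peaks that shLuci GFP+ cells lacked, the shCTCF SSEA1+ list held 10 (55.6%) and the shLuci SSEA1+ list 2 (11.1%), near the 55.6% and 15.1% of all such peaks.

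Dlk1 (chr12:109452485-109463336), a paternally expressed membrane protein of the Notch ligand type, had 13, 15, 10, 14 and 7 peaks with shCTCF and 13, 14, 14, 9 and 6 with shLuci. Meg3 (chr12:109540996-109571729), the maternally expressed RNA of the same cluster, had 22, 23, 16, 22 and 15 peaks with shCTCF and 24, 26, 18, 18 and 13 with shLuci. Relative to the whole lists, Meg3 was at -0.13, -0.31, -0.29, -0.15 and 0.03 on the log2 scale in the 5 pairs. All 5 counting intervals held 0, including that of Thy1+ cells, the value farthest from 0 (-1.19 to 0.555). In the joint window of SSEA1-Thy1- cells 8 of 31 control peaks were lost (25.8%, interval 11.9% to 44.6%), against 8.74% of the whole list, and 3 of 26 were gained (11.5%), against 15.8%. This pair was picked after its values were seen. The mean relative log2 of the window over the 5 pairs was -0.13 ± 0.16 (SD), with 1 above 0. Without the SSEA1+ pair the mean relative log2 of this window over 4 pairs was -0.16 ± 0.17 (SD), with 1 pair above 0.

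At the Meg3 start, the peak (chr12:109540715-109541114) was in the shCTCF GFP+ list and absent from the shLuci GFP+ list, and was in both lists of every other pair of the set. At day 10 a peak there was in the oeCTCF_shSmarca5 list, absent from the oeCTCF list and present in the oeControl list, and it was in both day 12 lists. A peak downstream of the start (chr12:109542875-109543274) was in all 15 lists, as was one beside the start of Dlk1 (chr12:109453107-109453506). Between the genes, where the control region is known to lie, a site 13.2 kb before the Meg3 start (chr12:109527573-109527972) was in all 10 lists of day 0 and sorted cells and all 3 of day 10. Its neighbours 15.2 kb and 11.9 kb before the start were in 8 and 9 of the 10.

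Peg3 (chr7:6703892-6730462), a paternally expressed zinc finger gene, had 12, 23, 18, 20 and 15 peaks in its window with shCTCF and 10, 21, 18, 17 and 12 with shLuci. At its start, which it shares with the divergent gene Usp29, a peak (chr7:6730219-6730618) was in all 10 lists of day 0 and sorted cells. Inside the gene, peaks 0.826 kb, 1.85 kb and 2.87 kb from the start were in all 15 lists. The start peak of the neighbouring Zim1 (chr7:6696300-6696699) was in all 15 as well.

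Snrpn (chr7:59982495-60450177), the gene of a small nuclear ribonucleoprotein, had 5, 12, 12, 13 and 9 peaks with shCTCF and 5, 12, 12, 12 and 9 with shLuci. Both shRNAs thus had 5 peaks at day 0 and 12 in Thy1+ cells. Of its 14 sites, 4 were in all 8 sorted lists and in neither day 0 list. Over the 8 loci 13 of 243 sites had this pattern (5.35%), near the 4.76% of all sites. The peak over 1 of its 4 RefSeq starts (chr7:60004932-60005331) was in all 10 lists of day 0 and sorted cells and in none of the 5 lists of day 10 and day 12, while a neighbour 0.941 kb from that start (chr7:60004059-60004458) was in all 15.

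Mest (chr6:30733506-30748466), a paternally expressed hydrolase-type gene, had 7, 9, 6, 7 and 6 peaks with shCTCF and 6, 8, 6, 6 and 5 with shLuci. Peaks over its main start (chr6:30737989-30738388) and 0.903 kb from it (chr6:30736947-30737346) were in all 15 lists. A peak 0.691 kb from its distal start was in both GFP+ lists and in no other.

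Across the 8 loci, 51 of 243 sites were in all 10 lists of day 0 and sorted cells (21%), against 13.5% of all 267322. Looked up in all 15 lists, 26 of 243 were found throughout (10.7%), against 7.99% of all sites, and each locus had at least 1. Of these 26 sites, 13 lay within 1 kb of the start of an imprinted gene, or of either gene end where no promoter was listed, as did 25 of the 243. Sites at the starts of Mest, Kcnq1ot1, Airn, Igf2r and Zim1 were among the 13. The matching share for the starts of all genes was not counted, so nearness to starts cannot be called particular to imprinted genes.

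The course of the control cells from day 0 to GFP+ had the largest share of lost peaks of the 9 pairs of lists. The shLuci lists held 163, 202, 161, 137 and 109 member peaks at day 0 and in Thy1+, SSEA1-Thy1-, SSEA1+ and GFP+ cells. Per 10000 peaks of each list that was 10.6, 10.4, 10.6, 10.1 and 11.9. In GFP+ against day 0 cells, 86 of 163 day 0 peaks were lost (52.8%, 95% interval 44.8% to 60.6%), against 67.6% of the whole list, and 32 of 109 GFP+ peaks were gained (29.4%, interval 21% to 38.8%), against 45.5%. Both shares were smaller in the imprinted windows than in the whole list by more than counting error, so more of their peaks were common to the start and the end.

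Lost shares of day 0 peaks varied over the loci, beside 67.6% of the whole list. Igf2r lost 20 of 27 day 0 peaks (74.1%, interval 53.7% to 88.9%), Grb10 18 of 25 (72%) and the Dlk1-Meg3 window 20 of 36 (55.6%). Mest lost 3 of 6 (50%), Kcnq1 17 of 38 (44.7%), H19-Igf2 5 of 16 (31.2%, interval 11% to 58.7%), Peg3 2 of 10 (20%) and Snrpn 1 of 5 (20%). The intervals of Kcnq1, H19-Igf2 and Peg3 lay below 67.6% and those of the others held it. Intervals of all loci overlapped, and differences between loci were not tested. By gene windows in GFP+ over day 0 cells, 4 of 10 members passed 1.5-fold, H19, Peg3 and Snrpn higher and Igf2r lower, against 53.4% of all gene windows. That background is high because the median of all gene windows lay at 0.46 on the relative log2 scale, and the median member lay at 0.36. Values were 1.12 for H19, 0.99 for Peg3, 1.49 for Snrpn and -0.88 for Igf2r.

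Peaks lost in GFP+ against day 0 control cells are called closing and those gained opening. Of the 86 closing member peaks, 74, 35, 57 and 15 were held in shCTCF Thy1+, SSEA1-Thy1-, SSEA1+ and GFP+ cells, and 72, 34, 18 and 0 in the shLuci lists, where 0 in GFP+ cells is set by the definition. In SSEA1+ cells that was 66.3% with shCTCF (interval 55.3% to 76.1%) and 20.9% with shLuci (12.9% to 31%), beside 55.6% and 15.1% over the whole list. Both intervals held the whole-list share. The fibroblast marker peaks of the shCTCF and shLuci SSEA1+ lists were 100 and 50. Endothelial (48 against 29), haematopoietic (42 against 29) and keratinocyte sums (29 against 19) were also higher in the longer shCTCF list, while neural sums were equal. The part of the cell mixture or list length in the held peaks was not tested. Without the SSEA1+ pair, the shares were 86% and 83.7% in Thy1+ cells and 40.7% and 39.5% in SSEA1-Thy1- cells, with shCTCF given before shLuci, differences of 2 peaks and 1 peak. Over the whole list they were 75.6% and 79.5% in Thy1+ cells and 31.3% and 28.9% in SSEA1-Thy1- cells. Member shares lay above these by more than counting error in shCTCF Thy1+ cells (interval 76.9% to 92.6%) and shLuci SSEA1-Thy1- cells (29.2% to 50.7%). They did not in shLuci Thy1+ or shCTCF SSEA1-Thy1- cells. In shCTCF GFP+ cells the member share was 17.4% (interval 10.1% to 27.1%), within counting error of the 11.7% over the whole list.

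Most of the 32 opening peaks were already in the Thy1+ lists. The shCTCF lists of Thy1+, SSEA1-Thy1-, SSEA1+ and GFP+ cells held 24, 24, 23 and 23 of them, and the shLuci lists 23, 24, 22 and 32, the last by definition. In shLuci Thy1+ cells that was 71.9% (interval 53.3% to 86.3%), against 49.6% of all opening peaks. Shares were within counting error of all opening peaks in shCTCF Thy1+ cells (75%, against 65.6%), in shCTCF GFP+ cells (71.9%, against 83.7%), in shCTCF and shLuci SSEA1-Thy1- cells (75% each, against 64.5% and 58.7%) and in shCTCF and shLuci SSEA1+ cells (71.9% and 68.8%, against 61% and 64.1%). The Snrpn and Peg3 windows held 5 and 4 of the 32, and in shLuci Thy1+ cells all of these were present.

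**Figure D5:**
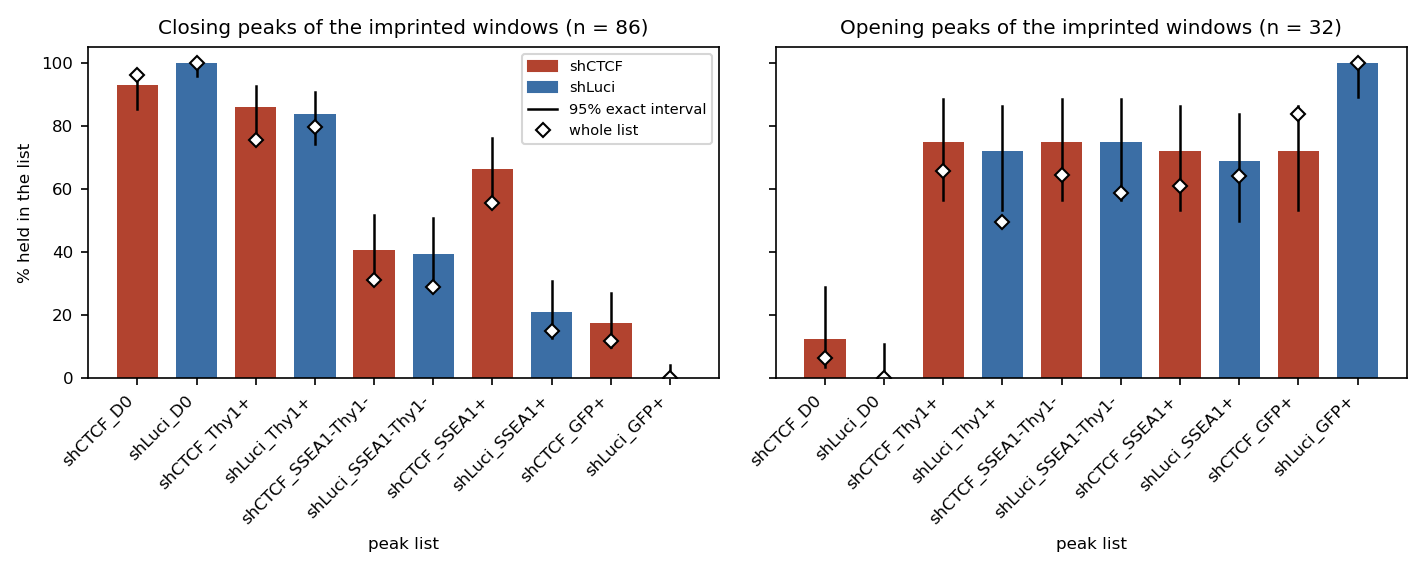
Share of the 86 closing and 32 opening member peaks held in each list of day 0 and sorted cells, in percent. Red bars are shCTCF and blue bars shLuci lists, black lines are exact 95% intervals and diamonds the whole lists; among closing peaks the shCTCF SSEA1+ bar stands at 66.3% and the shLuci SSEA1+ bar at 20.9%.

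At day 10, CTCF was overexpressed. The oeCTCF list held 86 member peaks and the oeControl list 88, a relative log2 of 0.07 (95% interval -0.38 to 0.51). Of the 88, 12 were lost with oeCTCF (13.6%), against 16.9% of the whole list, and 10 of 86 were gained (11.6%), against 10.9%. No member passed 1.5-fold among the 7 windows with enough peaks (0 of 7, against 2.73% of all gene windows). Losses included the 2 sites upstream of H19, the Meg3 start and 3 sites of Igf2r, whose window held 3 peaks with oeCTCF and 6 with oeControl. The Kcnq1 window held 25 with oeCTCF and 21 with oeControl.

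Adding the Smarca5 shRNA to CTCF overexpression gave the one pair of the 9 in which the imprinted windows lost a larger share of peaks than the whole list by more than counting error, with windows of 50 kb or 100 kb but not of 20 kb. The oeCTCF_shSmarca5 list held 73 member peaks and the oeCTCF list 86, a relative log2 of -0.21 (interval -0.68 to 0.26). Of the 86 peaks, 29 were lost (33.7%, interval 23.9% to 44.7%), against 18.3% of the whole list, and 16 of 73 were gained (21.9%, interval 13.1% to 33.1%), against 16.8%. Within 20 kb of the genes 14 of 57 peaks were lost (24.6%, interval 14.1% to 37.8%), and within 100 kb 34 of 109 (31.2%, interval 22.7% to 40.8%). By window, Peg3 lost 6 of 11 peaks, Dlk1-Meg3 8 of 17, Kcnq1 10 of 25, H19-Igf2 3 of 8 and Snrpn 2 of 10. None was lost of 9 at Grb10 and 3 each at Mest and Igf2r. This comparison shares the oeCTCF list with the preceding one, so a peak missing from that list alone counts as lost in one and gained in the other.

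Sites present with oeCTCF and oeControl and absent with oeCTCF_shSmarca5 were counted as well. They are a part of the losses above, rest on the same oeCTCF_shSmarca5 list and were chosen after their values were seen. They numbered 20 of 104 (19.2%), against 9.2% of all day 10 sites. Kcnq1 had 6 of them, Peg3 5, Dlk1-Meg3 5, and H19-Igf2 and Snrpn 2 each. At Peg3 they included the start peak (chr7:6730332-6730731), which was also absent from both day 12 lists. At H19-Igf2 they included the Igf2 site at chr7:142660550-142660949. At Kcnq1, 3 lay in the Cdkn1c to Slc22a18 stretch, at chr7:143464841-143465240, chr7:143467597-143467996 and chr7:143474846-143475245, and the Cdkn1c window held 7 peaks with oeCTCF_shSmarca5 against 14 with oeCTCF and 14 with oeControl.

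By gene windows, 3 of 7 members passed 1.5-fold in oeCTCF_shSmarca5 over oeCTCF, against 4.86% of all gene windows. Kcnq1 held 16 peaks against 25 in oeCTCF cells (relative log2 with 1 peak added -0.586) and Peg3 6 against 11 (-0.75). The Kcnq1 value lay barely past the 1.5-fold limit. Igf2r held 7 peaks with oeCTCF_shSmarca5 against 3 with oeCTCF (1.03), a sum of exactly 10. Counting intervals of the relative log2 without the added peak held 0 for Kcnq1 (-1.62 to 0.345), Peg3 (-2.57 to 0.713) and Igf2r (-0.882 to 3.83). With a minimum of 20 peaks 1 member passed. Sites present with oeCTCF alone, absent with both oeCTCF_shSmarca5 and oeControl, numbered 9 of 104 (8.65%), against 5.53% of all sites. Kcnq1 had 4 of them, of which chr7:143428506-143428905 lay nearest to an end of the gene (1.66 kb), Dlk1-Meg3 had 3, including chr12:109449734-109450133 at 2.89 kb before Dlk1, and Igf2 and Peg3 had 1 each. Of the 10 sites with the opposite order, absent with oeCTCF alone, 3 lay at Igf2r (chr17:12750827-12751226 in its body and chr17:12782894-12783293 and chr17:12794151-12794550 before its start). H19 had 2, Dlk1-Meg3 2, and Kcnq1, Peg3 and Grb10 1 each.

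At day 12, without CTCF overexpression, the Smarca5 shRNA left the windows close to their control. The shSmarca5 list held 59 member peaks and the shLuci list 55, a relative log2 of 0.08 (interval -0.48 to 0.64). Of the 55, 3 were lost (5.45%, interval 1.14% to 15.1%), against 5.4% of the whole list, and 7 of 59 were gained (11.9%, interval 4.91% to 22.9%), against 6.81%. No member passed 1.5-fold (0 of 5 with enough peaks, against 0.173%). Kcnq1 held 15 peaks with shSmarca5 and 12 with shLuci, and Peg3 6 with each. No drop in peak number at Kcnq1 or Peg3 was seen here, but the pairs differ in day and in CTCF overexpression, and the difference between them was not tested. The Peg3 sites that only the oeCTCF_shSmarca5 list lacked at day 10 had no peak in the shLuci day 12 list. Several of those at Kcnq1 had none there either, so these sites could not be lost at day 12.

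Of 57 further imprinted genes listed by symbol, 56 were in the gene table. Several, such as Airn, Ins2, Kcnq1ot1, Usp29 and Rian, start in the member windows and share their peaks, so the 56 are not a separate set. None passed 1.5-fold with shCTCF at day 0 or in Thy1+, SSEA1-Thy1- or SSEA1+ cells, where 0.121%, 1.27%, 1.05% and 6.7% of all gene windows did. In GFP+ cells Peg13 was higher and Casd1, Peg12 and Plagl1 lower with shCTCF, 4 of 50 with enough peaks (all gene windows 4.2%). With oeCTCF over oeControl Plagl1 was higher, 1 of 41 (all 2.73%). With oeCTCF_shSmarca5 over oeCTCF, Cdkn1c, Gnas, Rasgrf1 and Slc22a18 were lower and none higher, 4 of 38 (all 4.86%). Cdkn1c and Slc22a18 lie in or beside the Kcnq1 window and share its peaks. In shLuci GFP+ over day 0 cells 23 were higher and 5 lower of 52 (all in either direction 53.4%), with a median relative log2 of 0.45, beside 0.46 for all genes.

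Genes whose peak numbers ran most like those of the H19-Igf2 window over the 10 lists of day 0 and sorted cells were Igsf23 (Pearson r 0.997), Trim62 (0.99) and Icmt (0.99), of 13679 compared. For the Dlk1-Meg3 window they were Dnajc5 (0.946), Ppa1 (0.931) and Apobr (0.931). These values describe log2 peaks per 10000 and share the length of each list.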

How the data were processed

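ATAC-seq of 32 samples in 15 groups was analysed from the authors' deposited peak files, 1 list per group. The submitters' processing notes name MACS2, Picard, SAMtools, Bowtie2, cutadapt, Trim Galore and FastQC, and the builds GRCm38 and mm10. Not given in the sources used here: versions, thresholds, any shift of reads for the transposase, and how a group's samples became 1 list. The deposited lists give positions of 400 bp intervals. Their deposited score column is 0 throughout, so peaks could not be ranked or filtered, and the depth behind each list is unknown.

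Overlapping intervals of a list were merged, and a shared peak overlaps by at least 1 bp. Genes came from a RefSeq table of GRCm38.p6, with 49943 genes of 1 position. It has no strand, so starts came from RefSeq promoters (8 of 10 members) or from either gene end. A site is a merged peak position of a set of lists. Exact Clopper-Pearson 95% intervals reflect counting of peaks only, and peaks of 1 list are not replicates. No p-value was computed, because each group has 1 list. The steps were tested on simulated peaks with Python 3.11.15, numpy 2.4.6, scipy 1.17.1 and matplotlib 3.10.9.

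The members, gene lists and comparisons were chosen with earlier results of these data known. By rule, the text names all 10 members, sites lost or gained in 3 or more CTCF shRNA pairs, sites nearest to each start, sites of the H19-Igf2 window, sites missing with oeCTCF alone at day 10 or present with it alone, and the 3 protein-coding genes most like the H19-Igf2 and Dlk1-Meg3 windows. Sites found in all 15 lists, sites absent from the oeCTCF_shSmarca5 list only, the Cdkn1c window and sites away from starts at Dlk1-Meg3 and Mest were chosen after their values were seen. Alternatives were leaving out each locus, a window of 20 or 100 kb, an overlap of 200 bp, identical or unmerged intervals, another pseudocount and other minimum peak numbers.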

Additional observations from a re-analysis of the deposited data

How the results depend on the processing

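The 180 alternative values of the main counts and ratios moved by less than their counting interval or, for counts, by less than 1.5 times. With windows of 20 kb, however, the oeCTCF_shSmarca5 losses (24.6%, against 33.7% with 50 kb) and the Thy1+ gains (12.4%, against 10.7%) were no longer beyond counting error of the whole lists, while the SSEA1-Thy1- gains (8.11%, against 10.1%) then were; both shares of GFP+ over day 0 stayed beyond it with 20 kb and 100 kb. The relative log2 of the imprinted windows ranged from -0.0888 to 0.0908 in SSEA1+ cells, -0.11 to 0.0831 in GFP+ cells and -0.0353 to 0.118 for oeCTCF, crossing 0, and from -0.333 to -0.0248 for oeCTCF_shSmarca5 over oeCTCF. It stayed below 0 in the other CTCF shRNA pairs, with -0.174 the lowest value, and above 0 for shSmarca5 and for GFP+ over day 0. Among counts of members past 1.5-fold, the minimum of peaks mattered: with none, 1 passed for oeCTCF and 5 for oeCTCF_shSmarca5, and with 20 peaks 1 for oeCTCF_shSmarca5 and 2 for GFP+ over day 0. The mean over the CTCF shRNA pairs without the SSEA1+ and Thy1+ pairs, an alternative chosen after seeing the data, was -0.0674. No paired analysis was possible because each group has 1 deposited list over its samples, and for the same reason no replicate could be left out. A stricter peak threshold was not run because the score is 0 throughout.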
